A study of Mus musculus with 8 samples.

Results

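The comparison described here sets smooth muscle cells that lack the TGF-beta receptor gene Tgfbr2 against smooth muscle cells that keep it, both from the ascending aorta of mice fed a high-fat diet (HFD) for 2 months. The tested library, called KO, came from mice labelled TGFBetaRiSMC-Apoe, in which Tgfbr2 was lost in smooth muscle cells on an Apoe-deficient background. Its counterpart, called Apoe, came from Apoe-/- mice on the same diet, so both groups lacked Apoe. The members are the cells of these 2 libraries in the deposited table of this diet. There were 2253 KO cells and 2659 Apoe cells, together 4912 of the 13056 cells in the series. The other 6 libraries are the same genotypes on the diet labelled ND and after 1 or 4 months of HFD, and they are used here only to set the difference at 2 months in context. Per the labels, the aorta was digested, the GFP-positive fraction was taken by sorting as the smooth muscle fraction, and libraries were made with the 10x Genomics Chromium system. Each genotype and diet had 1 library, and the labels do not say how many animals it held, or give the age of the mice or the driver of the knockout. Differences between KO and Apoe at 2 months therefore have no replicate error, and a fold of fixed size, at least 2-fold, stands in place of a test.

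TGF-beta ligands are held in the matrix in a latent form by latent TGF-beta binding proteins. Once released, they bind the type II receptor Tgfbr2, which recruits and phosphorylates the type I receptor Tgfbr1, and the signal passes to Smad transcription factors. In arterial smooth muscle the pathway is known for driving genes of the elastic and collagenous matrix and for sustaining contractile differentiation, and its loss in mice or mutation in people is known for aortic aneurysm.

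Levels are given as unique molecular identifiers (UMIs) of a gene per 1000000 UMIs of the library (CPM), and ranges in brackets are exact 95% Poisson intervals. The KO library held 18254302 UMIs with a median of 7631 per cell, and the Apoe library 19719335 UMIs with a median of 7220 per cell. They shared 8 cell barcodes. All 8 smooth muscle markers were listed in both libraries, summing to 27939 CPM in KO and 25439 CPM in Apoe, and 97.7% of KO cells and 100% of Apoe cells had a UMI of at least 3 of them. Macrophage, lymphocyte and Schwann cell lists were near empty, with 2, 0 and 2 markers listed in KO and 1, 0 and 1 in Apoe, so most of their defining genes were listed at 0. Of 11 endothelial markers 3 were listed in each library, and 22 KO cells and 20 Apoe cells had UMIs of all 3. Tgfbr2 itself is not in the table that holds both genotypes. In the table of the Apoe time course it had 774 UMIs, or 39.2 CPM [36.5 to 42.1], in the Apoe library, and there is no value for KO, so the knockout label could not be checked against its gene.

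No gene is listed above 0 in under 5% of the cells of a library, and a gene can be listed at 0 throughout a library. Of the genes of this table, 8711 were listed in both libraries, 542 in KO only and 305 in Apoe only. Over the 8711, the median log2 ratio of KO over Apoe was -0.03 (interquartile range -0.32 to 0.22). At least 2-fold differences were found in 332 genes, which is 3.81% of those compared. Of them, 114 were higher in KO (1.31%) and 218 were lower in KO (2.5%). With 10 CPM added to both levels, which mutes the low genes, 58 were higher and 100 lower. Just inside the higher line stood Steap3, a metal reductase, at 25.04 CPM in KO and 12.48 CPM in Apoe, and just outside it Mgst1, a microsomal glutathione transferase, at 89.0 CPM in KO and 44.5 CPM in Apoe. On the lower side Tshz3, a zinc finger transcription factor, was just inside at 10.1 CPM in KO and 20.3 CPM in Apoe, and Dennd5b was just outside at 21.4 CPM in KO and 42.7 CPM in Apoe.

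**Figure D1:**
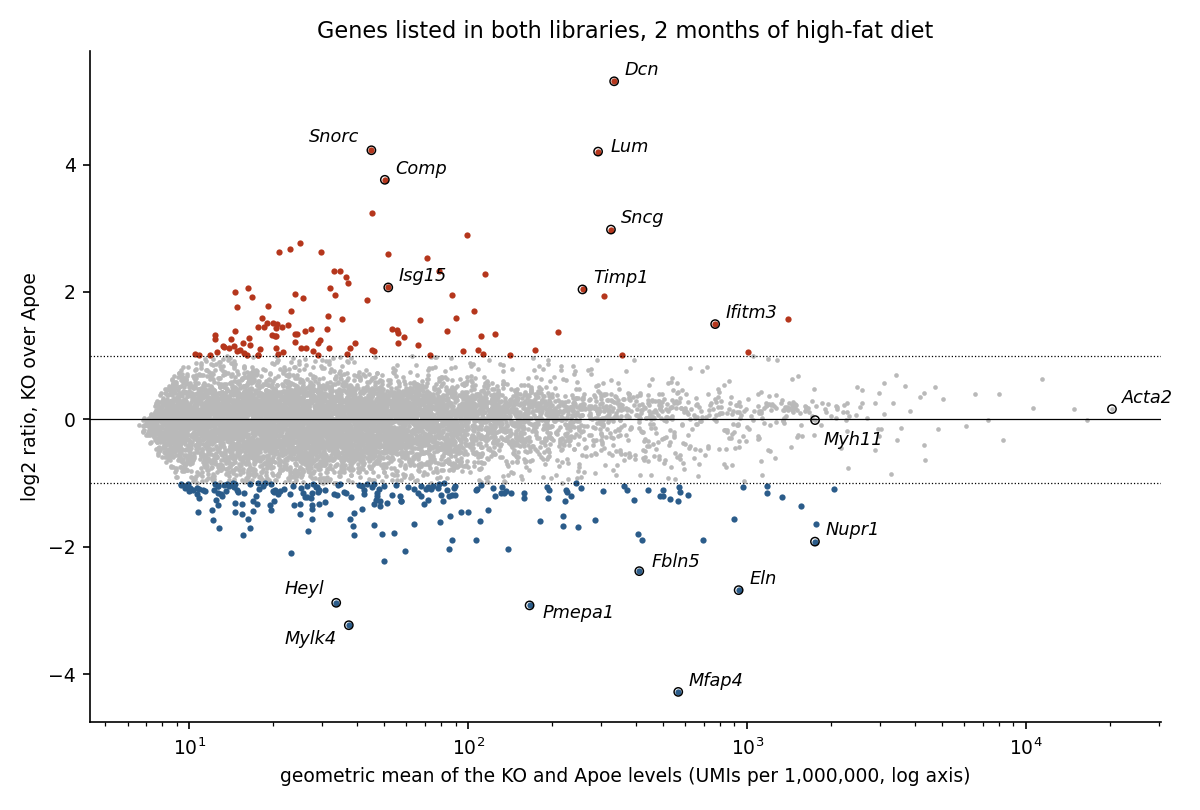
Log2 ratio of KO over Apoe (y axis) against the geometric mean of the 2 levels in UMIs per 1000000 (x axis, log scale) for the 8711 genes listed in both libraries at 2 months. Red points are at least 2-fold higher in KO and blue points at least 2-fold lower, with dotted lines at that fold. Dcn and Lum stand at the top and Mfap4, Pmepa1 and Eln at the bottom, while Acta2 and Myh11 lie near 0.

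Genes of the elastic fibre were among the lowest in KO cells relative to Apoe cells. Mfap4, which codes for a microfibril-associated glycoprotein (chromosome 11), had 128 CPM [123 to 134] in KO and 2495 CPM [2473 to 2517] in Apoe, a 19.4-fold lower level. Eln, the gene of elastin itself, had 368 CPM [359 to 377] in KO and 2362 CPM [2340 to 2383] in Apoe, 6.42-fold lower. Both genes were seen in nearly every Apoe cell. The intervals cover counting error only and do not measure the spread between libraries. Fbln5, whose product fibulin-5 tethers elastin to microfibrils and integrins, had 180 CPM in KO and 938 CPM in Apoe. Lox, the enzyme that cross-links elastin and collagen, had 68.6 CPM in KO and 283 CPM in Apoe. Mfap5, another microfibril component, had 164 CPM in KO and 491 CPM in Apoe. With the latent TGF-beta binding proteins Ltbp3 and Ltbp4, these made 7 of the 16 comparable members of the elastic fibre list at least 2-fold lower in KO, against 2.5% of all genes, and 0 members were at least 2-fold higher. The list's median log2 ratio was -0.61, against -0.03 over all genes. Not every member was low. Efemp2, which codes for fibulin-4, had 187 CPM in KO and 129 CPM in Apoe, and Emilin1, an elastin microfibril interface protein, had 163 CPM in KO and 153 CPM in Apoe.

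The lower levels were found across most cells. After each cell was thinned to 2500 UMIs, a Mfap4 UMI was seen in 18.6% of KO cells [17.0 to 20.3] and 97.4% of Apoe cells [96.7 to 98.0], with exact binomial 95% intervals. At full depth the shares were 39.9% of KO cells and 99.4% of Apoe cells. For Eln the thinned shares were 28.5% of KO cells and 94.8% of Apoe cells, and for Fbln5 22.1% of KO cells and 84.7% of Apoe cells. What KO cells retained was unevenly shared out. The 1% of cells with most Eln UMIs held 49.6% of all Eln UMIs in KO, 23 cells in all, and 7.12% in Apoe. The KO library had 73 cells with 10 or more Eln UMIs (3.24%), and the Apoe library had 1671 (62.8%).

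Genes known to respond to TGF-beta were lower as a group. Pmepa1, a target that feeds back to dampen receptor signalling, had 60.3 CPM [56.8 to 63.9] in KO and 457 CPM [447 to 466] in Apoe, 7.58-fold lower. Ccn2, the gene of connective tissue growth factor, had 217 CPM in KO and 757 CPM in Apoe. Both are among the known transcriptional targets of the pathway. Nox4, an NADPH oxidase, had 42.0 CPM in KO and 173 CPM in Apoe, and Skil, a Smad co-repressor, had 129 CPM in KO and 370 CPM in Apoe. In all, 6 of 18 comparable members were at least 2-fold lower, against 2.5% of all genes, and the median log2 ratio was -0.78. On the other side, 1 member was at least 2-fold higher. It was Timp1, an inhibitor of matrix metalloproteinases, with 520 CPM in KO and 127 CPM in Apoe. Fn1, fibronectin, and Thbs1, thrombospondin 1, were higher by less, at 949 and 107 CPM in KO and 540 and 54.1 CPM in Apoe. Timp1 UMIs lay mainly in few cells, the top 1% holding 42.9% of them in KO and 57.9% in Apoe.

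The parts of the pathway itself differed less, with a median of -0.35. At least 2-fold lower were 2 of 18 members, against 2.5% of all genes. The type I receptor Tgfbr1 had 57.7 CPM in KO and 116 CPM in Apoe. Among ligands, Tgfb2 had 152 CPM in KO and 280 CPM in Apoe, while Tgfb1 had 101 CPM in KO and 82.0 CPM in Apoe and Tgfb3 111 CPM in KO and 102 CPM in Apoe. Of the ligands, then, Tgfb2 was the lower in KO. Smad7, the inhibitory Smad, had 186 CPM in KO and 326 CPM in Apoe, and Smad3 had 13.9 CPM in KO and 15.2 CPM in Apoe.

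The contractile apparatus was at a like level in the 2 libraries. Acta2, smooth muscle actin, had 21484 CPM [21417 to 21551] in KO and 19228 CPM [19166 to 19289] in Apoe. Myh11, smooth muscle myosin heavy chain, had 1744 CPM in KO and 1759 CPM in Apoe, and the actin-binding calponin gene Cnn1 had 2376 CPM in KO and 2183 CPM in Apoe. Of 18 comparable contractile genes, 0 were 2-fold apart, and the median log2 ratio was 0.16. The widest differences were in Pdlim7 and Pcp4l1. Pdlim7, a cytoskeletal adaptor, had 334 CPM in KO and 609 CPM in Apoe. Pcp4l1 had 287 CPM in KO and 161 CPM in Apoe. The transcriptional coactivator of contractile genes, Myocd, had 39.0 CPM in KO and 36.6 CPM in Apoe. Against 2.5% of all genes, 3 of 16 in the list of contractile control genes were at least 2-fold lower in KO. They were Mylk4, a kinase of the myosin light chain kinase family, at 12.2 CPM in KO and 114 CPM in Apoe, the G protein regulator Rgs5 at 55.1 CPM in KO and 205 CPM in Apoe, and the transcription factor Klf2 at 299 CPM in KO and 648 CPM in Apoe. In the Notch list, 2 of 9 were at least 2-fold lower, against 2.5% of all genes. Of these 2, Heyl, a Notch target, had 12.4 CPM in KO and 91.2 CPM in Apoe. The ligand Jag1 had 69.2 CPM in KO and 73.3 CPM in Apoe.

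The other 15 lowest genes were of several kinds. Nupr1, a small stress-induced transcriptional regulator, had 899 CPM in KO and 3406 CPM in Apoe, seen in 61.5% of KO cells and 99.1% of Apoe cells at 2500 UMIs a cell. Xirp1, an actin-binding repeat protein, had 23.1 CPM in KO and 108 CPM in Apoe. Gxylt2, a xylosyltransferase, had 28.9 CPM in KO and 121 CPM in Apoe, and the kinase gene Stk17b had 45.2 CPM in KO and 168 CPM in Apoe. The predicted gene Gm10163, whose reads could belong to a related gene, is counted among the 15 as uncertain. Fibrillar collagens were lower by less than 2-fold, with Col1a1 at 412 CPM in KO and 694 CPM in Apoe and Col3a1 at 405 CPM in KO and 634 CPM in Apoe. Chains of type VI collagen lay on the other side, Col6a1 at 314 CPM in KO and 186 CPM in Apoe and Col6a3 at 140 CPM in KO and 76.5 CPM in Apoe. Over the 12 comparable interstitial collagens the median was -0.55, and 0 were 2-fold apart.

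**Figure D2:**
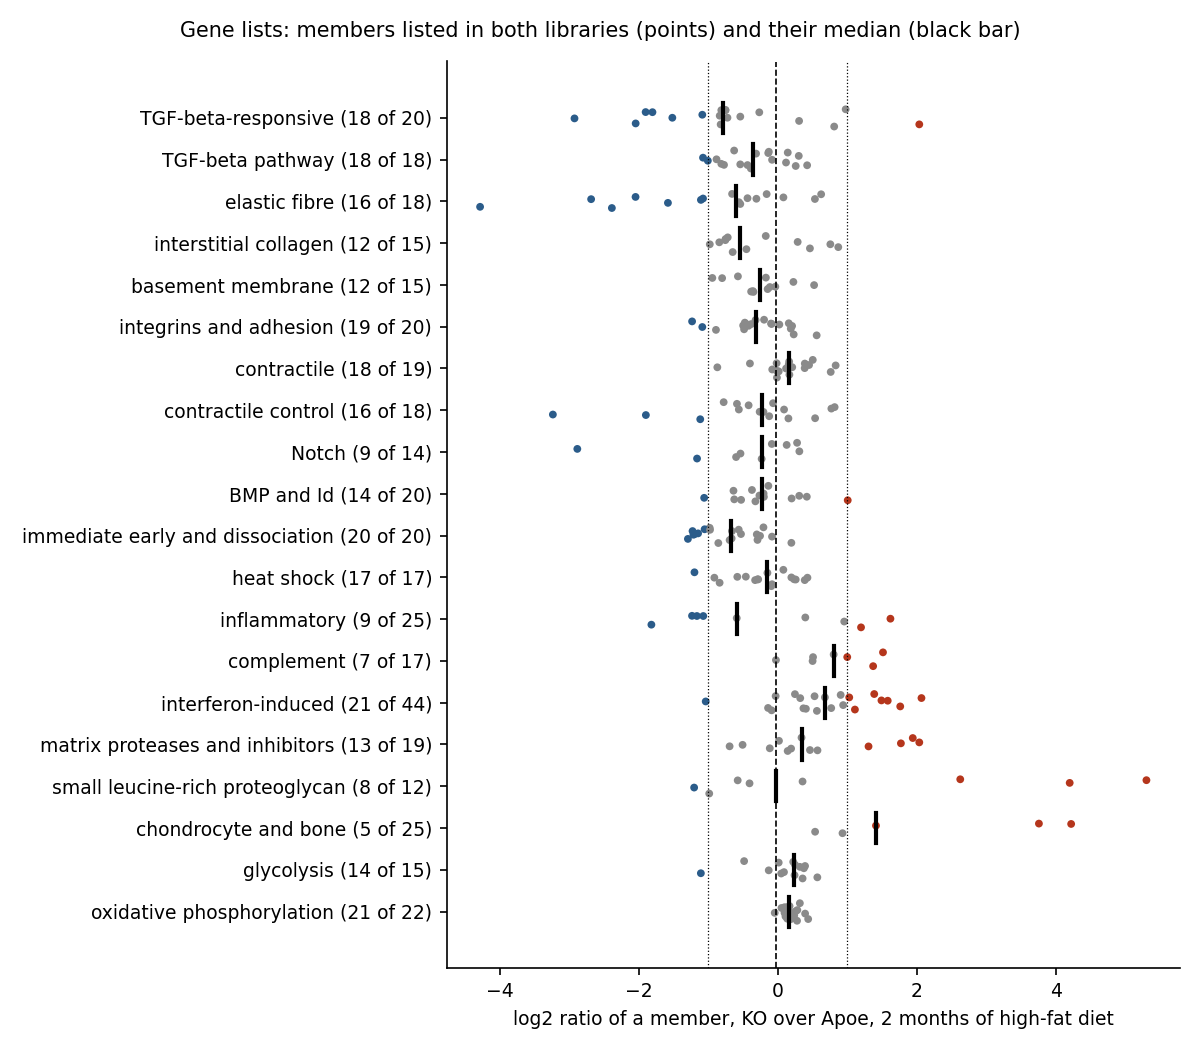
Log2 ratios of KO over Apoe at 2 months (x axis) for the members of 20 gene lists that were listed in both libraries, with their number and the list's size in brackets. Points are genes, red at least 2-fold higher and blue at least 2-fold lower in KO, black bars are list medians, and the dashed line is the median of all compared genes. The contractile list sits between the 2-fold lines, the elastic fibre and TGF-beta-responsive lists reach far to the left, and the chondrocyte and bone list lies on the right.

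At the other end stood 2 small leucine-rich proteoglycans, proteins that bind collagen fibrils. Dcn, decorin (chromosome 10), had 2098 CPM [2077 to 2119] in KO and 53.0 CPM [49.8 to 56.3] in Apoe, 39.6-fold higher. Lum, lumican, had 1253 CPM [1237 to 1270] in KO and 68.1 CPM [64.5 to 71.8] in Apoe, 18.4-fold higher. Another, Omd or osteomodulin, had 73.7 CPM in KO and 11.9 CPM in Apoe. The family was not higher as a whole. Bgn, biglycan, had 3758 CPM in KO and 4971 CPM in Apoe and Aspn, asporin, had 44.8 CPM in KO and 103 CPM in Apoe. The median over the 8 comparable members was -0.02. Dcn and Lum are also on the list of fibroblast markers. Of its 11 genes 5 were listed in KO, summing to 4885 CPM, and 4 in Apoe, summing to 901 CPM. The fibroblast markers Pdgfra, Dcn, Lum, Col14a1 and Gsn were those listed in KO. Pdgfra was listed at 0 in Apoe and adds to the KO sum alone. The part of fibroblasts within the sorted cells was not tested.

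Dcn and Lum were high in a minority of KO cells and at a low level in many more. At 2500 UMIs a cell, a Dcn UMI was seen in 26.7% of KO cells [24.9 to 28.6] and 2.97% of Apoe cells [2.36 to 3.69]. A Lum UMI was seen in 27.0% of KO cells [25.2 to 28.9] and 4.17% of Apoe cells [3.45 to 5.01]. Without thinning the shares were 45.0% of KO cells and 6.51% of Apoe cells for Dcn, and 44.6% of KO cells and 8.09% of Apoe cells for Lum. The 10% of cells with most Dcn UMIs held 96.3% of them in KO, and 232 KO cells had 10 or more (10.3%), against 15 Apoe cells (0.564%). No second cell type was set apart in either library to serve as a blank. The part of free RNA in the cells with 1 or a few UMIs was therefore not tested.

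Sncg, gamma-synuclein, was higher in a different way. It had 912 CPM [898 to 926] in KO and 116 CPM [111 to 121] in Apoe, 7.88-fold higher, and at 2500 UMIs a cell it was seen in 66.4% of KO cells and 15.8% of Apoe cells. The median KO cell had 4 Sncg UMIs and the median Apoe cell 0, and the top 10% of KO cells held 37.7% of them. Among the 15 highest genes, Slco2a1, a prostaglandin transporter, had 64.8 CPM in KO and 9.53 CPM in Apoe, and the secreted Wnt antagonist Sfrp1 had 57.7 CPM in KO and 9.08 CPM in Apoe. A second Wnt antagonist, Frzb, had 270 CPM in KO and 36.3 CPM in Apoe, and Rarres1, a retinoid-induced gene, had 138 CPM in KO and 14.7 CPM in Apoe. Over cells without a UMI of Dcn or Lum the log2 ratio of Frzb was 0.55, under 2-fold, and that of Snorc, a cartilage gene, was 0.32. Frzb and Rarres1 UMIs were the more concentrated, the top 1% of KO cells holding 43.7% of Frzb and 40.2% of Rarres1 UMIs, against 13.9% of Slco2a1 and 19.3% of Sfrp1 UMIs. Pdcd5-ps, at 77.7 CPM in KO and 15.4 CPM in Apoe, is a processed pseudogene whose reads may come from its parent gene and is named as uncertain.

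**Figure D3:**
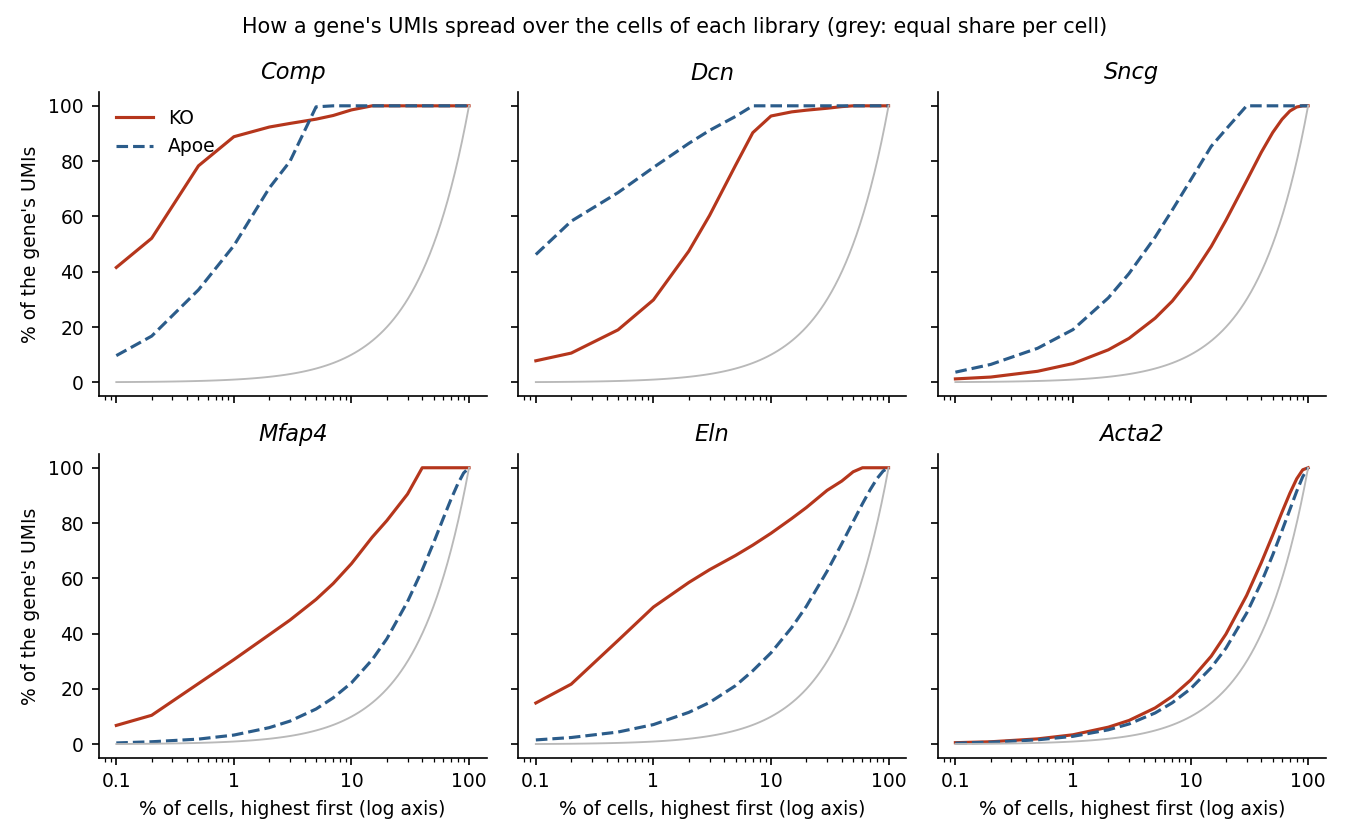
Share of a gene's UMIs (y axis, %) held by a given share of cells ranked from highest to lowest (x axis, %, log scale), in KO (solid red) and Apoe (dashed blue) at 2 months, with the line of equal shares in grey. In KO, 1% of cells held 88.8% of Comp UMIs but 6.80% of Sncg UMIs. Acta2 was spread alike in both libraries, with 23.2% of KO UMIs and 20.1% of Apoe UMIs in the top 10% of cells.

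Genes of cartilage and bone were higher in KO or listed in KO only, and for several of them most UMIs came from a small number of cells. Snorc, a chondrocyte proteoglycan, had 194 CPM in KO and 10.4 CPM in Apoe, and Comp, cartilage oligomeric matrix protein, had 185 CPM in KO and 13.6 CPM in Apoe. Acan, the gene of aggrecan, had 51.0 CPM in KO and 19.1 CPM in Apoe. The list's 5 comparable members had a median log2 ratio of 1.42. A further 10 of its 25 genes were listed in KO only, against 542 of all 9558 genes. Over cells without a UMI of Dcn or Lum the median was -0.053, with Acan at a log2 ratio of -0.43. Of the 9 chondrocyte markers 7 were listed in KO, summing to 1670 CPM, and 4 in Apoe, summing to 98.3 CPM. These sums are over unlike genes, since Col2a1, Chad and Cytl1 were listed at 0 in Apoe and add to the KO sum alone. The members of the chondrocyte and bone list that were listed in KO only included Spp1, osteopontin, at 1328 CPM in KO, Col2a1, the collagen of cartilage, at 580 CPM in KO, and Ibsp, bone sialoprotein, at 333 CPM in KO, all 3 listed at 0 in Apoe. The chondromodulin gene Cnmd at 138 CPM and the osteocalcin gene Bglap at 99.6 CPM in KO were likewise listed at 0 in Apoe. The 1% of KO cells with most UMIs of a gene, 23 cells, held 92.8% of Bglap, 88.8% of Comp, 88.4% of Ibsp, 75.1% of Spp1 and 72.9% of Col2a1 UMIs. The library's levels of these genes thus describe few cells. A listing at 0 in Apoe does not show that a gene was absent or even rarely seen there. The mitochondrial gene mt-Atp6, which codes for a subunit of ATP synthase, was seen in 77.4% of KO cells at 219 CPM and is listed at 0 in Apoe, although mt-Nd1 and mt-Cytb, from the same genome, were seen in 100% of Apoe cells.

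Some of these genes overlapped in the same cells more than others. At 2500 UMIs a cell, 50 of the 96 KO cells with an Ibsp UMI also had a Col2a1 UMI (52.1%), but only 63 of the 372 cells with a Spp1 UMI did (16.9%), against 7.59% of all KO cells. Of the 171 cells with a Col2a1 UMI, 30 had a Comp UMI (17.5%), against 4.79% of all KO cells. In KO, 63 cells (2.80% [2.16 to 3.56]) had 10 or more Col2a1 UMIs. Their values are given as a description, since they were chosen by a gene of the same data. All 63 also had 10 or more Dcn UMIs, 48 had 10 or more of Chad, a chondrocyte adhesion protein gene, and 38 of Ibsp. In them Sparc, an abundant matrix protein of bone, stood at 53072 CPM, against 4421 CPM in all KO cells, and Sox9, the cartilage transcription factor, at 375 CPM against 80.1 CPM. Contractile genes were low there, with Acta2 at 1443 CPM and Myh11 at 146 CPM. Interferon-induced Isg15 stood at 24.1 CPM, against 106 CPM in all KO cells. These cells were deep, with a median of 16416 UMIs against 7631 in the library, and no doublet caller was run, so the part of doublets was not tested.

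A second set of Dcn-rich cells had low levels of most of these genes, though not of Spp1. In KO, 75 cells (3.33%) had 10 or more UMIs of Ly6a, the surface antigen Sca-1, which is listed at 0 in Apoe. Dcn stood at 21130 CPM and Lum at 11010 CPM in them, against 10637 and 3261 CPM in the Col2a1-rich cells. Col2a1 stood at 15.1 CPM, Ibsp at 9.58 CPM and Comp at 50.7 CPM in the Ly6a-rich cells, while Spp1 stood at 3442 CPM. Of the 63 Col2a1-rich cells 0 had 10 or more Ly6a UMIs and 0 had 10 or more UMIs of Mmp3, the matrix metalloproteinase stromelysin 1. Of all KO cells only 3.33% and 1.95% had as many. With 63 cells, these counts of 0 are near those shares and do not show that the sets exclude each other. Mmp3 reached 1841 CPM in the Ly6a-rich cells and 157 CPM in all KO cells, and is listed at 0 in Apoe. Acta2 stood at 3135 CPM in the Ly6a-rich cells. Their median of 9193 UMIs was nearer to that of the library.

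There were 33 KO cells (1.46%) with 10 or more Mfap4 UMIs, against 2084 Apoe cells (78.4%). Of the 33, 21 also had 10 or more Eln UMIs and 20 had 10 or more Fbln5 UMIs. Eln stood at 8119 CPM in these 33 KO cells and at 2471 CPM in the 2084 Apoe cells chosen the same way. Fbln5 stood at 2375 CPM in the KO set and 963 CPM in the Apoe set, and the TGF-beta target Pmepa1 at 527 CPM in the KO set and 466 CPM in the Apoe set. Dcn stood at 1600 CPM in the KO set and 45.3 CPM in the Apoe set. The choice by Mfap4 keeps few KO cells and most Apoe cells, so these values describe the sets and no more.

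**Figure D4:**
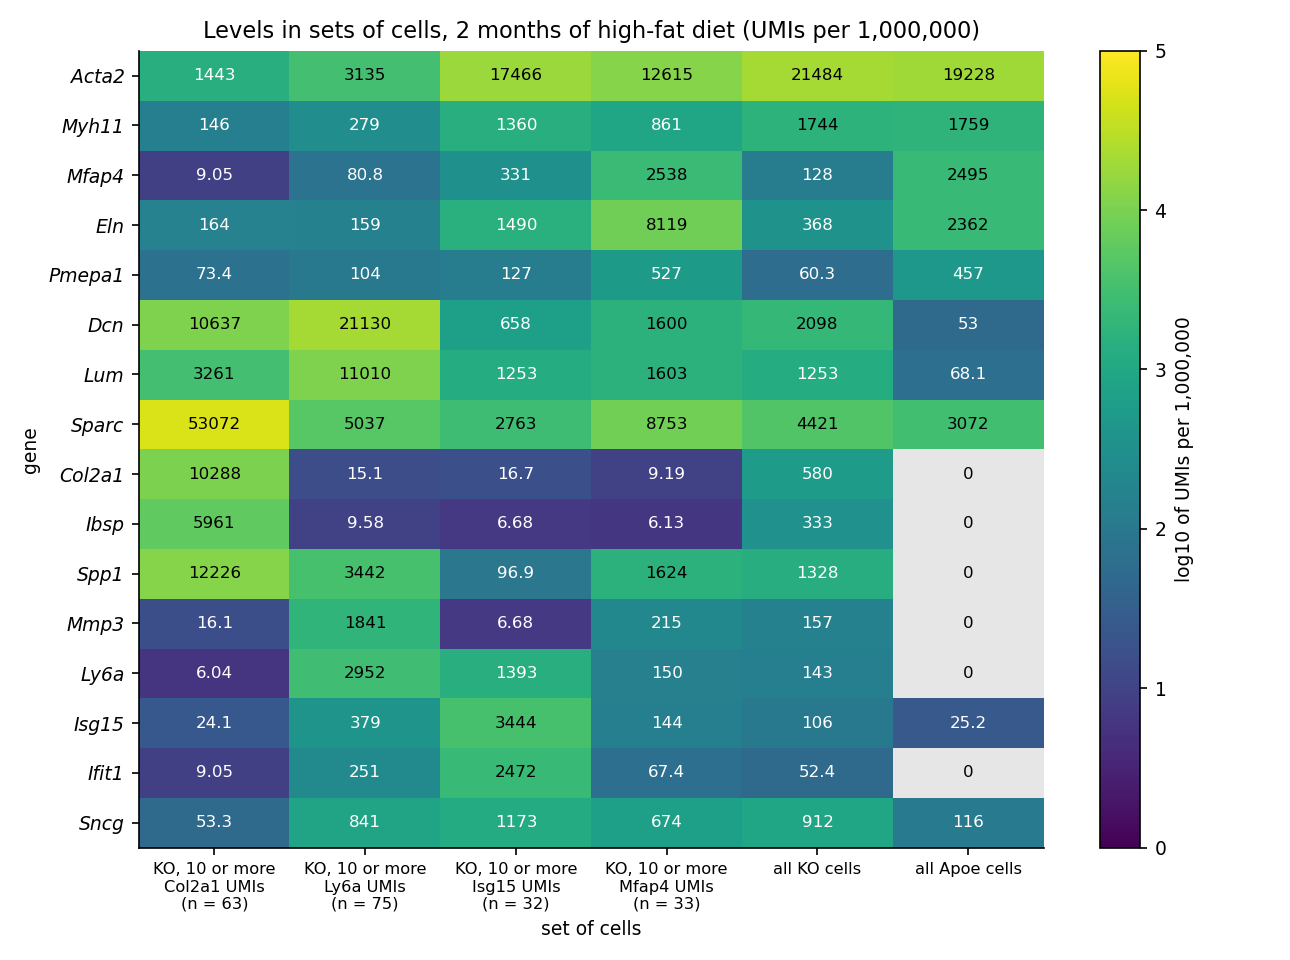
Levels of 16 genes (rows, UMIs per 1000000 printed and coloured on a log10 scale) in 4 sets of KO cells with 10 or more UMIs of Col2a1, Ly6a, Isg15 or Mfap4, in all KO cells and in all Apoe cells at 2 months (columns). Grey marks a gene listed at 0. Sparc reaches 53072 in the 63 Col2a1-rich cells, Dcn 21130 in the 75 Ly6a-rich cells and Eln 8119 in the 33 Mfap4-rich cells, and each set is high in its own gene by choice.

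The deficit in elastic fibre and TGF-beta-responsive genes was larger in cells without Dcn and Lum. The list medians there were -0.98 and -1.32, against -0.61 and -0.78 over all cells. The KO library had 837 cells (37.2%) without a UMI of either gene, and the Apoe library 2344 (88.2%). Over these cells Mfap4 stood at 109 CPM in KO and 2521 CPM in Apoe, Eln at 213 CPM in KO and 2332 CPM in Apoe, and Pmepa1 at 35.0 CPM in KO and 454 CPM in Apoe. Acta2 stood at 25331 CPM in KO and 19920 CPM in Apoe, and Sncg at 886 CPM in KO and 103 CPM in Apoe. The proteoglycan Omd and the gelatinase Mmp2 had log2 ratios of -0.75 and -0.73 there, against 2.63 and 1.95 over all cells. Levels of Comp, 14.4 CPM in KO and 10.5 CPM in Apoe, and of Timp1, 78.3 CPM in KO and 58.4 CPM in Apoe, were close there. Of the genes at least 2-fold apart over all cells, 72 of the 114 higher and 184 of the 218 lower stayed at least 2-fold apart the same way. The split was chosen after the values were seen, and the KO cells without these UMIs were shallower than the rest, with a median of 6813 UMIs.

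Interferon-induced genes were higher in KO as a group. Isg15, a ubiquitin-like modifier, had 106 CPM in KO and 25.2 CPM in Apoe, and the antiviral membrane proteins Bst2 and Ifitm3 had 156 and 1289 CPM in KO and 52.1 and 457 CPM in Apoe. B2m, the light chain of class I histocompatibility molecules, had 1642 CPM in KO and 854 CPM in Apoe. Of 21 comparable members 7 were at least 2-fold higher, against 1.31% of all genes, and 1 was at least 2-fold lower, and the median log2 ratio was 0.68. The lower member was Irf1, a transcription factor, at 77.7 CPM in KO and 159 CPM in Apoe. A further 15 members were listed in KO only, among them Ifit1 at 52.4 CPM and Ifit3 at 45.4 CPM, and 1, Zbp1, in Apoe only. Of all 9558 genes 542 were listed in KO only and 305 in Apoe only. A listing at 0 does not show absence, so these members have no ratio and no part in the median.

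Part of this signal came from few cells and part was spread. The top 1% of KO cells held 48.0% of Isg15 UMIs but 8.51% of Ifitm3 UMIs, and at 2500 UMIs a cell an Ifitm3 UMI was seen in 85.6% of KO cells and 55.5% of Apoe cells. The 32 KO cells with 10 or more Isg15 UMIs had Ifit1 at 2472 CPM and the guanylate-binding protein gene Gbp2 at 798 CPM. They kept Acta2 at 17466 CPM and Myh11 at 1360 CPM, and Col2a1 stood at 16.7 CPM in them. In cells without Dcn and Lum, Bst2 had 150 CPM in KO and 49.9 CPM in Apoe. Of the macrophage list, Cd74 was at 27.6 CPM in KO and listed at 0 in Apoe, Lgals3 had 599 CPM in KO and 157 CPM in Apoe, and the other 11 markers were at 0 in both.

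Promoters of the interferon-induced genes are shown for the members that were at least 2-fold higher or listed in KO only, reached 20 CPM in KO and held the core of the interferon-response element, GAAANNGAA on either strand, before their start. The stretches run 5′ to 3′ on the strand of the gene, with the core or its reverse complement in capitals and 20 bases on each side, from RefSeq promoters of build GRCm38.p6. Capitals mark 1 match a gene. Before their starts, Isg15 and Ifit1 held 2 matches each and Ifit3 held 3, counted without overlap. In Isg15 and in Bst2 a further match overlaps the marked one.
Isg15: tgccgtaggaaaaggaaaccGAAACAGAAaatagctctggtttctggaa
Bst2: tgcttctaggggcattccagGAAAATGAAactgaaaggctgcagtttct
Gbp2: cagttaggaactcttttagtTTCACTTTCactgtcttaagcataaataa
Ifit1: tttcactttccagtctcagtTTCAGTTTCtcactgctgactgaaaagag
Ifit3: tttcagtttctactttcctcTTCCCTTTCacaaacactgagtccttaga
H2-T23: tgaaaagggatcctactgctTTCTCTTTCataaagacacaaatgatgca
They lie at chr4:156200856-156200904 (minus strand) for Isg15, chr8:71537574-71537622 (minus strand) for Bst2, chr3:142620585-142620633 (plus strand) for Gbp2, chr19:34640785-34640833 (plus strand) for Ifit1, chr19:34583407-34583455 (plus strand) for Ifit3 and chr17:36032796-36032844 (minus strand) for H2-T23, a class I histocompatibility gene.

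In windows of 250 bases before to 50 after the start, 18 of the 36 interferon-list genes with a promoter in the table held this core, against 8.18% of the 6702 compared genes with a promoter and 9.76% of all 27025 genes with one. The 7 comparable members with the core had a median log2 ratio of 1.11, and the 12 without it a median of 0.39. Among the genes at least 2-fold higher in KO, 10.4% of 77 with a promoter held it, and among those at least 2-fold lower 10.5% of 153. The Smad-binding letters CAGAC, on either strand, were in 51.6% of the promoters of genes at least 2-fold lower in KO and in 50.6% of those of compared genes. The CAGAC share among the lower genes was thus near that of all compared genes. A match describes letters in a window and not a bound site.

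Inflammatory genes went both ways. Cx3cl1 and Ccl19, both chemokine genes, had 55.2 and 59.3 CPM in KO and 17.9 and 25.8 CPM in Apoe. Among the lower members were Nfkbia, an inhibitor of NF-kappaB, at 786 CPM in KO and 1758 CPM in Apoe, and Tnfaip3, a ubiquitin-editing inhibitor, at 8.33 CPM in KO and 29.3 CPM in Apoe. The neutrophil chemoattractant Cxcl1 had 126 CPM in KO and 297 CPM in Apoe. In all, 2 of 9 comparable inflammatory genes were at least 2-fold higher and 4 at least 2-fold lower, against 1.31% and 2.5% of all genes, with a median of -0.59. In the complement list 3 of 7 comparable genes were at least 2-fold higher, against 1.31% of all genes, with Serping1, the C1 inhibitor, at 338 CPM in KO and 130 CPM in Apoe and C4b at 32.2 CPM in KO and 11.3 CPM in Apoe. Lcn2, lipocalin 2, had 141 CPM in Apoe and was listed at 0 in KO, and Stmn1, a microtubule regulator seen in 37.9% of Apoe cells, had 75.1 CPM there and was listed at 0 in KO.

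Immediate early genes, which tissue digestion is known to induce, were lower in KO. Fos had 2437 CPM in KO and 4401 CPM in Apoe, Egr1 821 CPM in KO and 1699 CPM in Apoe, and Myc 142 CPM in KO and 347 CPM in Apoe. Of 20 members 19 were below 0 and 6 were at least 2-fold lower, with a median of -0.68, against 47.3% above 0 and 2.5% at least 2-fold lower over all genes. The median was below 0 on the other diets too, at -0.54 on ND, -0.44 after 1 month and -0.99 after 4 months. Nfkbia, Tnfaip3 and Klf2 were lower in KO as this list was, and the part of digestion in any of these differences was not tested. Of 21 comparable oxidative phosphorylation genes of the nuclear genome 20 were above 0, against 47.3% of all genes, at a median of 0.17, and 0 were 2-fold apart. In the glycolysis list 1 of 14 was at least 2-fold lower, against 2.5% of all genes. It was the hexokinase gene Hk2, at 72.9 CPM in KO and 157 CPM in Apoe. Of 9 comparable genes of the mitochondrial genome 1 was at least 2-fold lower, against the same 2.5%. It was the cytochrome c oxidase gene mt-Co3, at 672 CPM in KO and 1398 CPM in Apoe. Of the matrix protease list, 4 of 13 comparable members were at least 2-fold higher, against 1.31% of all genes, including Timp1, Mmp2, a gelatinase, at 65.0 CPM in KO and 16.9 CPM in Apoe, and Ctsk, the collagen-degrading cathepsin K, at 35.4 CPM in KO and 10.4 CPM in Apoe.

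The same genes were followed on the other diets, whose pairs share no library with the pair at 2 months. On ND, 0.864% of genes were at least 2-fold higher in KO than in Apoe and 1.56% lower; after 1 month 0.866% were higher and 0.899% lower; after 4 months 7.0% were higher and 18.2% lower. Of the 218 genes lower in KO at 2 months, 210 of the 214 comparable on ND were also lower there, 203 of 214 after 1 month and 130 of 173 after 4 months, against 56.7%, 47.6% and 63.3% of all genes. Of the 114 higher at 2 months, 87 of 102 were higher on ND, 93 of 101 after 1 month and 60 of 104 after 4 months, against 43.3%, 52.4% and 36.7% of all genes. At least 2-fold lower on all 4 diets were 24 of 7994 genes, including Eln, Fbln5, Lox, Pmepa1, Ccn2, Nupr1 and Stk17b. At least 2-fold higher on all 4 were Rarres1, Ifitm10 and the uncertain Pdcd5-ps. Ifitm10 is named for the interferon-induced transmembrane family and is not on the interferon list.

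The elastic fibre deficit was already there on ND, where Mfap4 had 62.1 CPM in KO and 2168 CPM in Apoe and Eln 714 CPM in KO and 3436 CPM in Apoe. A higher Dcn level in KO was seen in the HFD pairs and not in the ND pair, with 1 library a point. The part of the diet in this was not tested, and the age of the mice is not given. Dcn had 29.1 CPM in KO and 36.9 CPM in Apoe on ND, 265 CPM in KO and 48.2 CPM in Apoe after 1 month, and 7820 CPM in KO and 2451 CPM in Apoe after 4 months. The contractile genes were level at 2 months and not at 4, when Acta2 had 802 CPM in KO and 11932 CPM in Apoe and the list's median was -3.61, against 0.16 at 2 months. The interferon list had medians of 0.45 on ND, 0.47 after 1 month, 0.68 after 2 months and -0.51 after 4 months. List medians are over the members comparable on each diet, which can differ between diets.

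**Figure D5:**
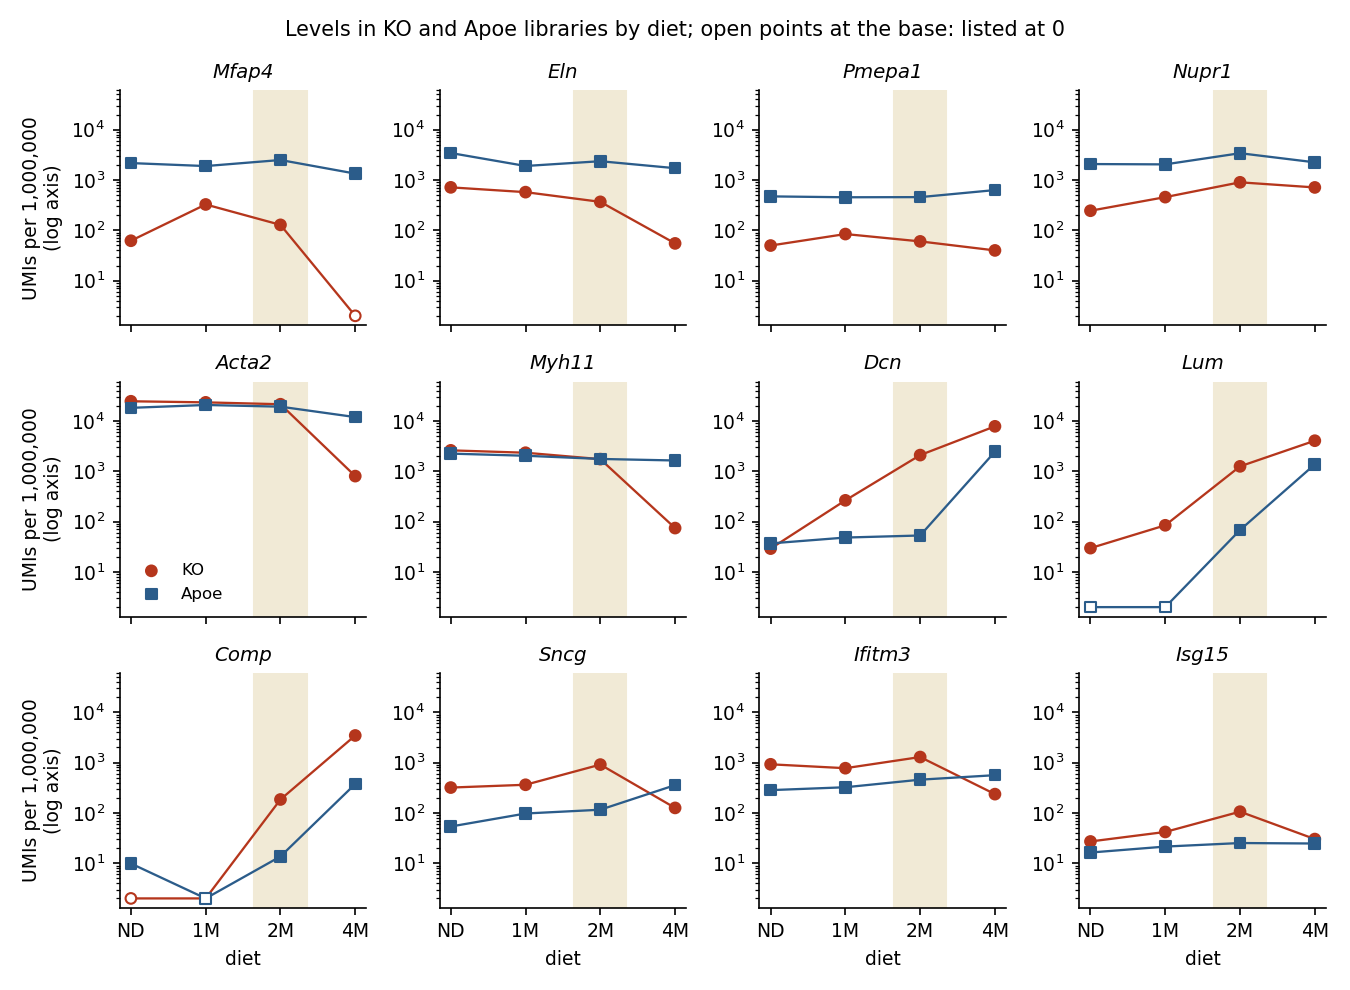
Levels of 12 genes (y axes, UMIs per 1000000, log scale) in KO (red circles) and Apoe (blue squares) libraries on ND and after 1, 2 and 4 months of HFD (x axes), 1 library a point, with 2 months shaded and open points at the base for a gene listed at 0. Mfap4, Eln, Pmepa1 and Nupr1 are lower in KO on each diet shown, Acta2 and Myh11 part at 4 months, and Sncg and Ifitm3 change order between 2 and 4 months.

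Whether the genotype difference at 2 months departed from that on the other diets was tested across the 8 libraries with limma, on log2(CPM + 1) of the genes listed in all 8, with diet and genotype as factors and 2 residual degrees of freedom. Of 7994 genes, 0 passed an adjusted p of 0.05 (0%), and 25 had an unadjusted p under 0.05. Among those 25, the difference at 2 months exceeded the other diets by 4.02 ± 1.16 (SE) on the log2 scale for Dcn, by 1.39 ± 0.39 for Isg15 and by 1.56 ± 0.30 for Carmn, a smooth muscle long noncoding RNA, each with a Benjamini-Hochberg adjusted p of 1.00. With the mean deposited log2 value per library in place of CPM, the Dcn departure was -0.48 ± 1.82, the other direction. The error in this fit is the spread of the genotype difference over ND, 1 month and 4 months, and leaving out the ND or the 1 month pair left the count at 0. Without both 4 month libraries 111 genes passed, 58 with a higher and 53 with a lower difference at 2 months, on 1 residual degree of freedom. They were led by Cd24a, a surface glycoprotein, at 2.63 ± 0.26, Pcolce2, a procollagen processing enhancer, at 1.77 ± 0.18 and Dcn at 4.23 ± 0.48, with limma adjusted p-values of 2.62e-07, 4.55e-07 and 1.93e-06. Cd24a UMIs lay mainly in few KO cells after 2 months, the top 1%, 23 cells, holding 64.2% of them. The gene had 52.2 CPM in KO and 8.42 CPM in Apoe then. On ND it stood at 9.73 and 10.5 CPM and after 1 month at 8.43 and 9.67 CPM, KO before Apoe each time. After 4 months, in the pair left out of that fit, its log2 ratio was 5.03, against 2.63 after 2 months.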

How the data were processed

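Single-cell libraries of sorted aortic cells were analysed for 2 genotypes at 2 months of high-fat diet, with the other 6 libraries for context. Per the submitters' processing notes, the authors used build GRCm38 and the tools STAR, featureCounts, UMI-tools and Subread 1.6.0, named there with no roles. The deposited values are log2 values of UMI counts scaled per cell, with some genes listed at 0 throughout a library by a relaxed filter, and Apoe and Tgfbr2 left out of the tables that join genotypes, per the file names. In what order these steps ran is not stated in the sources. From them UMIs were recovered by taking each value back from log2 and dividing by the smallest nonzero value of the cell. Of 12942819 entries at 2 months, 100% came out whole within 0.01. UMIs were summed per library and divided by the library's total, and ratios carry no pseudocount. Cells were filtered no further, no doublet caller was run, and no clusters were built.

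With 1 library a side no test between KO and Apoe at 2 months was made. Exact Poisson intervals for levels and exact binomial (Clopper-Pearson) intervals for shares are 95% intervals and cover counting error only. To compare shares of cells, every cell was thinned to 2500 UMIs, which left out 0 cells. Gene lists and markers were fixed by hand. The named genes are the 15 highest and 15 lowest ratios with at least 20 CPM in the higher library and the 4 largest members of each list by size of ratio. Some genes that meet this rule are not reported here. Other genes, and the sets of cells with 10 or more UMIs of a gene, were chosen after their values were seen. The members and lists were chosen with earlier results of these data known. Departure from the other diets was tested in R 4.3.3 with limma 3.58.1 after a check of the script on simulated data. Its p-values measure the spread between libraries of different diets. Gene positions came from GENCODE M21 and matched 9555 of 9558 IDs. Alternatives were other scalings, pseudocounts, filters and thinnings, leaving out deep or marker-bearing cells, and, chosen after seeing the data, leaving out cells with Dcn or Lum UMIs. Python 3.11.15 with numpy 2.4.6, scipy 1.17.1, pandas 2.3.3 and matplotlib 3.10.9 was used.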

Additional observations from a re-analysis of the deposited data

Results flagged for a closer look

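Several differences at 2 months had the opposite direction on another diet, each with 1 library a side. The differences between diets were not tested for the list medians, and the limma fit over all diets passed 0 of 7994 genes, with 25 at an unadjusted p under 0.05.

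Among lists, the interferon-induced genes had a median log2 ratio of 0.68 at 2 months and -0.51 at 4 months, and the interstitial collagens -0.55 at 2 months and 0.61 at 4 months. The chondrocyte and bone list had 1.42 at 2 months and -0.74 on ND, and the inflammatory list -0.59 at 2 months and 0.54 at 1 month. Each median is over the members comparable on that diet, so the genes behind it can differ between diets.

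Among genes, the log2 ratio of Sncg was 2.98 at 2 months and -1.504 at 4 months. The prostaglandin transporter Slco2a1 had 2.77 at 2 months and -1.02 at 4 months. The same turn was seen for Ifitm3, at 1.49 and -1.25, for the chemokine Cx3cl1, at 1.62 and -1.16, and for Igfbp4, which codes for an insulin-like growth factor binding protein, at 1.09 and -1.02. Serping1, the C1 inhibitor, had 1.37 at 2 months and -1.52 at 4 months. Against 1 month, Omd had 2.63 at 2 months and -1.36 at 1 month, the predicted gene Gm10163 -2.10 and 1.83, and the chemokine Cxcl1 -1.23 and 2.67. Contractile transcripts differed little at 2 months and were far lower in KO at 4 months, so CPM levels at these times stand against unlike totals, whose part was not tested.

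Genes listed in 1 library only have no ratio and stand outside the counts. At 100 CPM or more there were 11 listed in KO only, led by Spp1 at 1328 CPM and Col2a1 at 580 CPM. There was 1 listed in Apoe only, Lcn2 at 141 CPM, seen in 8.73% of Apoe cells.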

How the results depend on the processing

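No paired analysis was possible because no replicate numbers pair libraries at 2 months, with 1 library of each genotype, and the limma fit takes KO against Apoe within each diet. Counts of genes at least 2-fold apart moved by more than 1.5 times only with 10 CPM added, to 158 in all, 58 higher and 100 lower in KO. The elastic fibre median of -0.61 was -0.74 as a mean over cells and -0.74 without the 5% deepest cells, -0.98 without cells with a UMI of Dcn or Lum and -0.91 without those with 10 or more. In the same order of settings, the TGF-beta-responsive median was -0.83, -0.87, -1.32 and -1.26, and -0.83 with cells thinned. The contractile median was 0.19, 0.21, 0.36 and 0.35, and 0.19 with the median of all genes set to 0. The chondrocyte and bone median was 0.84, 0.50, -0.053 and -0.068, and 1.13 from the deposited values taken back from log2, 1.07 with 10 CPM added and 1.02 with cells thinned. The interferon median was 0.52 with 10 CPM added, and the immediate early median -0.64 as a mean over cells and -0.61 thinned. Acan turned to -0.43 and -0.45 and Omd to -0.75 and -0.48 without the Dcn and Lum cells by each rule, and Mmp2 to -0.73 without any such cell. The cause was not tested, beyond the removal of the cells that held these genes. Those 2 settings were chosen after seeing the data. Without both 4 month libraries, limma passed 111 genes in place of 0. Of the 30 named genes all kept their sign under the planned settings, and Cd24a alone fell under 2-fold, without the 5% deepest cells. Without cells with a UMI of Dcn or Lum, 20 of 28 with a value stayed 2-fold the same way, and Cd24a, Comp, Crispld1, Frzb, Omd, Pcolce, Snorc and Tnfrsf11b did not. Ratios of genes with few UMIs are limited by depth, and genes listed at 0 cannot be compared.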

Other observations

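Ion channel and receptor genes of the contractile response differed by member. Kcnk3, a background potassium channel, had 33.3 CPM in KO and 7.96 CPM in Apoe, and Adra1b, an adrenergic receptor, had 32.5 CPM in KO and 8.62 CPM in Apoe. Cacna1c, the pore of the L-type calcium channel, had 9.15 CPM in KO and 19.98 CPM in Apoe, while Kcnmb1, a subunit of the large-conductance potassium channel, had 163 CPM in KO and 188 CPM in Apoe. The 11 comparable members had a median log2 ratio of -0.25. In KO 2 were at least 2-fold higher and 1 at least 2-fold lower, against 1.31% and 2.5% of all genes.

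A few genes differed by at least 2-fold at 2 months after near equal levels on ND and at 1 month. Besides Cd24a they included Axin1, a scaffold of the Wnt pathway, at 13.8 CPM in KO and 29.9 CPM in Apoe at 2 months, and Baz1a, a chromatin remodelling subunit, at 32.7 CPM in KO and 69.5 CPM in Apoe. On ND, Axin1 had 23.2 CPM in KO and 22.7 CPM in Apoe and Baz1a 36.7 CPM in KO and 38.8 CPM in Apoe. At 4 months the log2 ratio was 5.03 for Cd24a, -0.64 for Axin1 and 0.02 for Baz1a.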
